A study of Homo sapiens with 8 samples.

Results

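The Notch receptors NOTCH1, NOTCH2 and NOTCH3, the ligands JAG1, JAG2, DLL1 and DLL3, the nuclear effector RBPJ and the target genes HES1 and HEY1 were followed in U87 cells in which RND3 had been silenced. These 10 genes were taken as a list of names. Every array probe whose RefSeq transcript belonged to 1 of them was taken, which gave 12 of the 42405 probes and 10 of the 19483 named genes on the arrays, with a pair of probes each for NOTCH1 and NOTCH2 and a single probe for each other gene. U87 is an established human glioblastoma line. Cells were reverse transfected with Lipofectamine RNAiMAX carrying either a non-silencing control siRNA (siControl) or siRNA against RND3 (siRND3), and total RNA was measured after 24 h on 3 arrays per group and after 48 h on 1 array per group. All 8 arrays therefore come from transfected cells of the same line. The methods name a pair of RND3 oligos without saying which array received which, and neither the labels nor the methods say whether replicates were separate transfections, so the p-values below measure the spread between arrays, which may be technical.

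Notch receptors are single-pass membrane proteins that are activated by Jagged or Delta-like ligands on a neighbouring cell. Ligand binding exposes the receptor to cleavage by ADAM metalloproteases and then by gamma-secretase, and the released intracellular domain enters the nucleus and joins the DNA-binding protein RBPJ. RBPJ recruits co-repressors in the absence of that domain and Mastermind-like co-activators in its presence, and the HES and HEY repressors are the best known genes under its control. The arrays read transcripts only, so receptor cleavage, protein levels and pathway activity were not measured.

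RBPJ binds DNA at sites with the core TGGGAA, which reads TTCCCA on the other strand, and the promoters of the members were searched for these letters on both strands. RefSeq promoter windows of GRCh38.p14, covering the 250 bases before each annotated start, were at hand for 7 of the 10 members, with 11 windows in all, and not for DLL1, DLL3 and HEY1. A match was found in 2 of the 11 windows, the single one of HES1 and 1 of the 5 starts of RBPJ, and each of these held 2 matches that did not overlap. Among all 35116 windows of the same length, 20.85% held at least 1 match and 2.90% at least 2. Only the sequences of the windows with a match are shown. They belong to the classical Notch target and to the member whose transcript passed the test at 24 h. Both are given 5′ to 3′ on the plus strand of GRCh38.p14, HES1 at chr3:194135898-194136147 and RBPJ at chr4:26319496-26319745, with the matches in capitals.
HES1: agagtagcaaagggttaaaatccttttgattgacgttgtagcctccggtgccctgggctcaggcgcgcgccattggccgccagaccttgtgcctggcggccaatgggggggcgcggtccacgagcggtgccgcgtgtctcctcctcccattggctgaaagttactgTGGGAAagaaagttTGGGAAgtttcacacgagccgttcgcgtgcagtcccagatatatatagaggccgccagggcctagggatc
RBPJ: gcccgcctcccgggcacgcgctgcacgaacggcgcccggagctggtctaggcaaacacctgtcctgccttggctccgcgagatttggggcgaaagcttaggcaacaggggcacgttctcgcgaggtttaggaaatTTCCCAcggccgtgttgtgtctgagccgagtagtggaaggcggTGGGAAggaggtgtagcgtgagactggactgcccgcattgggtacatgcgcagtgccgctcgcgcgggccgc
In HES1 the matches began 84 and 70 bases before the start, both as TGGGAA. In RBPJ they began 115 bases before the start as TTCCCA and 72 bases before it as TGGGAA. A match of letters is a description of the sequence and not a measured binding site.

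Values below are log2 of the background-corrected spot intensity after quantile normalisation over the 8 arrays, and differences are siRND3 minus siControl on that log2 scale. Levels of different probes are not comparable. Each array had 68.3% to 70.7% of its probes above background, and arrays of 1 group at 24 h correlated with Pearson's r from 0.9915 to 0.9955, against 0.9867 to 0.9891 between groups. All 8 arrays shared 1 slide and 1 scan, but the siRND3 arrays lay in the first row of the slide and the siControl arrays in the second, so an effect of the row and one of RND3 silencing cannot be told apart. Likewise the 48 h arrays lay in column 4 and the 24 h arrays in columns 1 to 3, so effects of column and of time cannot be told apart. The silenced gene bore out the labels. RND3 read 11.88, 11.91 and 11.90 in siControl and 10.13, 10.18 and 10.41 in siRND3 at 24 h, a difference of -1.66 ± 0.09 (SE, n = 3 per group) that left 31.7% of the control intensity (limma adjusted p = 0.000339). At 48 h it read 11.48 in the siControl array and 9.83 in the siRND3 array, a difference of -1.65. The size of the knockdown thus did not differ detectably between the times (0.01 ± 0.19, limma adjusted p = 0.990).

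Among the members, RBPJ was the only gene whose transcript passed the test at 24 h, falling to 79.6% of control. The readings of JAG1, NOTCH3 and 1 probe each of NOTCH1 and NOTCH2 were also below every control array without passing, and HEY1 read above every control array. JAG2, DLL1, DLL3 and HES1 were not well above background on enough arrays to be tested. Of the 6 genes (8 probes) tested, 1 passed the limma test at an adjusted p of 0.05, or 16.7%, and 16.6% of all 14805 genes tested passed in either direction (9.29% lower and 7.35% higher). The share among the members was thus that of the arrays as a whole. At an unadjusted p under 0.05 there were 3 of the 8 member probes and 8105 of all 28762 probes tested. The groups did not overlap for 6 of the 8 probes, with siRND3 below siControl for 5 and above it for 1. Of all tested probes 34.7% did not overlap, 14.0% with siRND3 below and 20.7% above. With each gene at its brightest tested probe, the median difference of the 6 members was -0.07 at 24 h, against 0.04 for all genes tested.

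**Figure D1:**
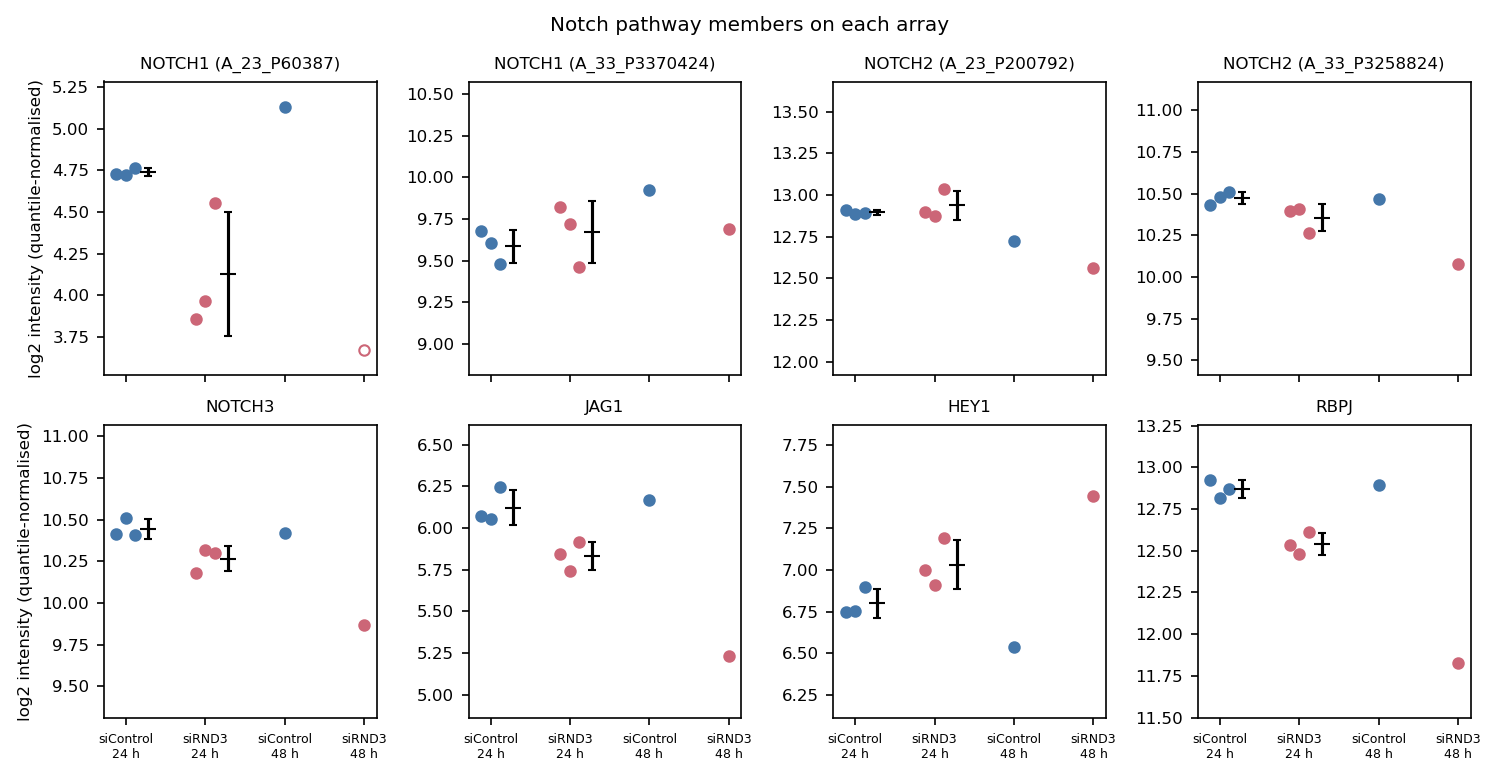
Log2 quantile-normalised intensity (vertical axes) of the 8 tested member probes on each array, by treatment and time (horizontal axes), with the mean ± SD of 3 arrays at 24 h and a single array per group at 48 h. The open symbol marks a group in which the probe was not well above background. RBPJ, JAG1, NOTCH3, each NOTCH2 probe and the dimmer NOTCH1 probe lie lowest in siRND3 at 48 h, where RBPJ reads 11.83 and JAG1 5.23.

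The receptors gave small differences that depended on the probe. The dimmer NOTCH1 probe (A_23_P60387, spotted 10 times per array) read 4.73, 4.72 and 4.77 in siControl and 3.86, 3.97 and 4.55 in siRND3 at 24 h. The groups did not overlap, but siRND3 replicate 3 lay closer to the controls than to its own group. The difference was -0.61 ± 0.18 (SE, 95% interval -1.04 to -0.18, n = 3 per group) and did not pass (limma adjusted p = 0.0782). It passed in 4 of 16 alternatives, namely without siRND3 replicate 3 (-0.82, limma adjusted p = 0.0063), with SAM, in the additive fit of treatment and time over 8 arrays (-0.82, limma adjusted p = 0.0291) and on gene means over probes (-0.26, limma adjusted p = 0.0416). The last averages it with the brighter NOTCH1 probe and is not a value of this probe alone. SAM, at a false discovery rate of 5%, is the paper's stated test for genes changed by the knockdown. Here it called NOTCH1 and RBPJ lower. The spots of the dimmer probe show how near to background it was, since all 10 were well above background on each siControl array at 24 h, and 6 of 10, 8 of 10 and 9 of 9 on the siRND3 arrays. The size also depended on how background was treated, with -0.15 after normexp correction and -0.25 in the authors' log2 values, neither of which passed.

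The brighter NOTCH1 probe (A_33_P3370424) read 9.68, 9.60 and 9.48 in siControl and 9.82, 9.72 and 9.46 in siRND3. These groups overlapped, with a difference of 0.08 ± 0.11 (SE, 95% interval -0.19 to 0.36). The pair of NOTCH1 probes therefore disagreed in sign at 24 h. Across the 8 arrays their readings had a correlation of -0.10. The gap between the probes' differences was -0.70 on the log2 scale (p = 0.2, exact permutation test of 3 arrays against 3). Such a test cannot give a p below 0.1, so it cannot say whether that gap exceeds the spread between arrays.

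NOTCH2 differed little between the groups. Its probe A_23_P200792 read 12.91, 12.88 and 12.89 in siControl and 12.90, 12.87 and 13.04 in siRND3, a difference of 0.04 (95% interval -0.14 to 0.22). Its other probe (A_33_P3258824), assigned to a different RefSeq transcript, read 10.44, 10.48 and 10.51 against 10.40, 10.41 and 10.27. The siRND3 arrays were all below the controls here, by 0.12 on average (95% interval -0.30 to 0.06, limma adjusted p = 0.352). The annotation lists 4 NOTCH2NL genes, which are near-identical partial copies of NOTCH2, so either probe may read more than 1 gene. NOTCH3 read 10.41, 10.51 and 10.41 in siControl and 10.18, 10.32 and 10.30 in siRND3. All 3 siRND3 arrays were below all 3 controls, with a difference of -0.18 ± 0.08 (SE, 95% interval -0.36 to 0.01) that did not pass (limma adjusted p = 0.191).

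Of the ligands, only JAG1, the Jagged ligand, was measured. It read 6.07, 6.05 and 6.24 in siControl and 5.84, 5.74 and 5.91 in siRND3 at 24 h. The groups did not overlap, and the difference of -0.29 ± 0.09 (SE, 95% interval -0.50 to -0.08, n = 3 per group), or 81.9% of control, did not pass (limma adjusted p = 0.0871). JAG1 was below control under all 16 processing alternatives and passed in 2 of them, an additive fit of treatment and time over 8 arrays and a fit on gene means over probes. The second Jagged ligand, JAG2, was well above background on none of the 8 arrays, and its readings ran from 1.54 to 2.66. DLL3, a Delta-like protein known to inhibit Notch signalling within the cell, was above background on none either, with readings from 1.17 to 1.94. DLL1, an activating Delta-like ligand, was above background on 1 array, siRND3 replicate 3 at 24 h, with readings from 1.33 to 3.31. For these ligands no level or difference can be given.

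RBPJ is the DNA-binding protein on which all canonical Notch signals converge. Its probe read 12.92, 12.82 and 12.87 in siControl and 12.53, 12.48 and 12.61 in siRND3 at 24 h. The lowest control array lay above the highest siRND3 array, and the group means were 12.87 ± 0.05 and 12.54 ± 0.06 (SD, n = 3). RBPJ fell by 0.33 (SE 0.07, 95% interval -0.51 to -0.15, limma adjusted p = 0.0364). It was lower under all 16 alternatives, from -0.51 to -0.27, but passed in 8 and lost the call in the other 8, among them each of the 6 fits that left out a single array (limma adjusted p from 0.0527 to 0.129). The annotation holds 4 RBPJ pseudogenes, RBPJP2, RBPJP5, RBPJP6 and RBPJP7, so the probe may read more than 1 transcript.

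**Figure D2:**
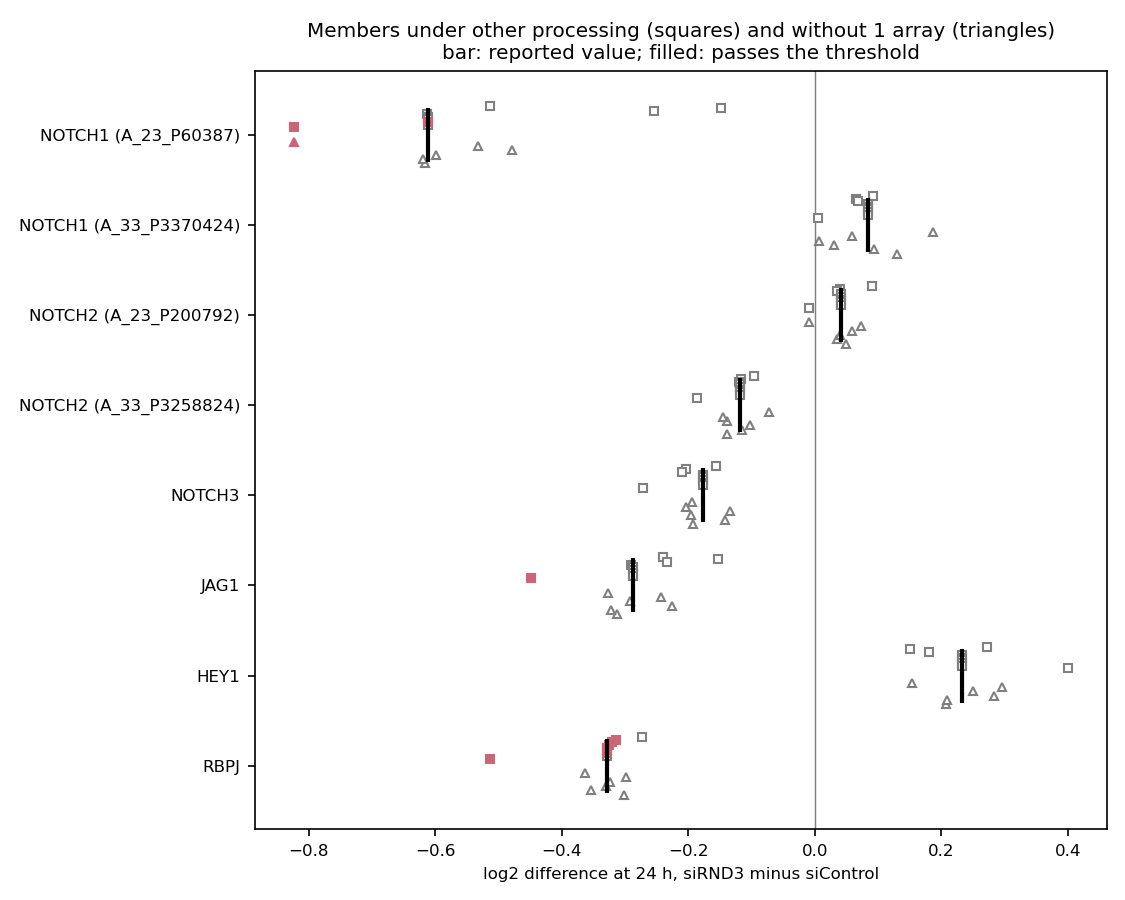
Log2 difference at 24 h, siRND3 minus siControl (horizontal axis), of each tested member probe (vertical axis) as reported (black bar), under other processing (squares) and without a single array (triangles), filled where the value passed the threshold. RBPJ lies left of 0 throughout, from -0.51 to -0.27, while the dimmer NOTCH1 probe spans -0.82 to -0.15.

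Of the target genes among the members, HEY1 was tested and did not pass, and HES1 was too dim to be tested. HEY1, a repressor that Notch induces, read 6.75, 6.75 and 6.90 in siControl and 7.0, 6.91 and 7.19 in siRND3. All siRND3 arrays were above all controls, although siControl replicate 3 (6.9012) and siRND3 replicate 2 (6.9082) nearly met, and the difference of 0.23 ± 0.10 (SE, 95% interval -0.01 to 0.47) did not pass (limma adjusted p = 0.186). HES1, the classical target, was above background on 3 of 8 arrays (siControl replicates 1 and 3 and siRND3 replicate 1, all at 24 h) and read from 1.80 to 4.03, so it has no usable level. With the filter on dim probes removed, none of JAG2, DLL1, DLL3 and HES1 passed (limma adjusted p from 0.290 to 0.998). Of the 8 further target genes on the list of other pathway members, HES2, HEY2, HEYL and NRARP were above background on no array and HES7 on 2, and HES4, HES5 and HES6 were tested with none passing.

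**Figure D3:**
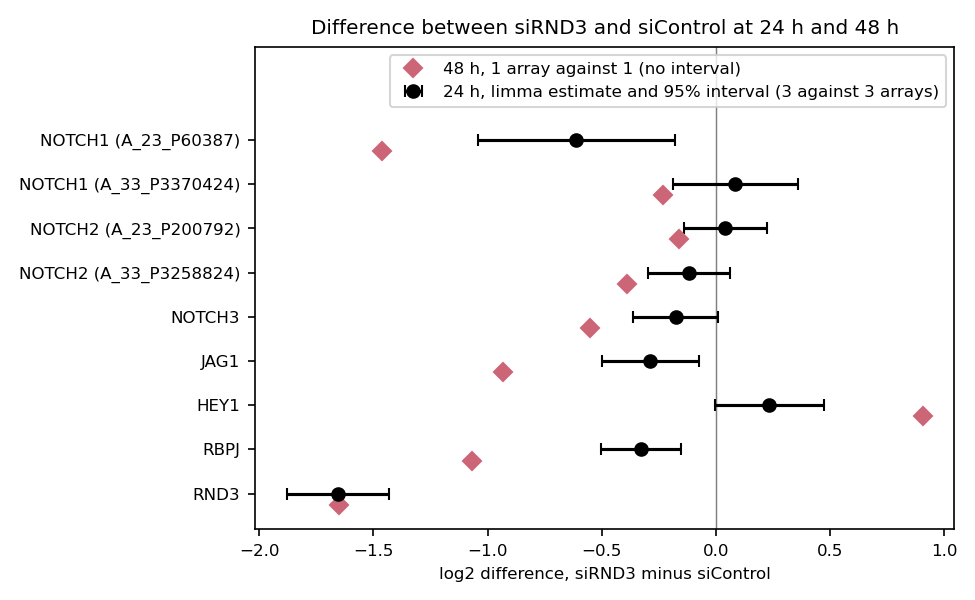
Log2 difference, siRND3 minus siControl (horizontal axis), of RND3 and each tested member probe (vertical axis), as the mean with its 95% interval over 3 arrays per group at 24 h and as a diamond for the single pair of arrays at 48 h, which for NOTCH1 (A_23_P60387) uses a siRND3 reading that was not well above background. RND3 is near -1.65 at both times, whereas RBPJ goes from -0.33 to -1.07, JAG1 from -0.29 to -0.93 and HEY1 from 0.23 to 0.90.

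At 48 h the differences of most members were larger, although each group had 1 array and a 48 h difference on its own has no replicate check. RBPJ read 12.90 in siControl and 11.83 in siRND3, or 47.7% of control. JAG1 read 6.16 and 5.23, or 52.4%. NOTCH3 read 10.42 and 9.87, and the NOTCH2 probes 12.73 and 12.56 (A_23_P200792) and 10.47 and 10.08 (A_33_P3258824). All of these were below the control array. The brighter NOTCH1 probe read 9.92 and 9.69. The dimmer one read 5.13 in siControl and 3.67 in siRND3, where it was not well above background. On these values it was 2.75-fold lower. That is not a lower bound, since the size of this probe's difference at 24 h depended on how background was treated. HEY1 read 6.54 and 7.44, or 187% of control, and was the single tested member above it. Thus 7 of 8 probes were lower at 48 h. With each gene at its brightest tested probe, 5 of 6 members were lower, against 6593 of all 14805 genes tested. Lower by more than 1 on the log2 scale were 2 probes, that of RBPJ and the dimmer NOTCH1 probe, the latter not well above background in siRND3. Of all tested probes 5.62% were lower and 3.92% higher by as much. The same direction as at 24 h with a larger size was seen for 6 of 8 probes, as for 52.3% of all tested probes.

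Whether the knockdown effect differed between the times was tested in a model of all 4 groups, in which each lone 48 h array takes its error from the 24 h replicates. None of the 6 members passed, and 4.33% of all genes did. The closest was RBPJ, whose effect at 48 h exceeded that at 24 h by -0.74 ± 0.15 (SE, limma adjusted p = 0.0565). This difference passed in 3 of 11 alternatives. The values were -0.64 for JAG1 (limma adjusted p = 0.118) and 0.67 for HEY1 (limma adjusted p = 0.140). None is given for the dimmer NOTCH1 probe, which was not well above background in siRND3 at 48 h.

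The same model compared the times within each treatment. In siControl none of the 6 members passed, against 5.25% of all genes, and RBPJ differed by 0.03 and JAG1 by 0.04 between 24 and 48 h. In siRND3, 2 of 6 members passed, both lower at 48 h, against 13.0% of all genes in either direction and 9.32% lower. RBPJ fell by 0.71 (SE 0.10, limma adjusted p = 0.0119) and passed in all 11 alternatives. JAG1 fell by 0.60 (SE 0.12, limma adjusted p = 0.0338), a call that was lost in 8 of 11 alternatives. HEY1 differed by 0.41 ± 0.14 (SE, limma adjusted p = 0.126) and NOTCH3 by -0.40 ± 0.11 (SE, limma adjusted p = 0.0726). Since these contrasts share the siRND3 arrays with the comparison at 24 h, they are not separate evidence on the knockdown.

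The wider pathway was described with 61 other genes grouped by role, of which 60 had a probe and 50 were tested at 24 h. Of these, 2 were higher, 5 were lower and the rest did not pass, or 14.0% called against 16.6% of all genes, and the median difference was 0.06. Among regulators of ligand and receptor turnover 4 of 12 passed. FBXW7, the F-box protein that marks the Notch intracellular domain for degradation, read 8.38, 8.47 and 8.45 in siControl and 9.26, 9.08 and 9.34 in siRND3, well apart, and rose by 0.79 (SE 0.09, limma adjusted p = 0.00355). NUMB, an inhibitor of Notch that acts in endocytosis, fell by 0.29 (limma adjusted p = 0.0442), a call lost in 9 of 16 alternatives, among them SAM and every fit without a single array (limma adjusted p from 0.0648 to 0.154). AAK1, a kinase of clathrin-mediated endocytosis, fell by 0.51 and 0.49 at 2 probes (limma adjusted p = 0.0419 and 0.0243), while the other tested probe of it differed by -0.01. These AAK1 calls were lost in 8 and 6 of 16 alternatives, the first kept among the fits without a single array only without siRND3 replicate 2 and the second only without siRND3 replicate 3 (limma adjusted p of the lost calls from 0.0534 to 0.127). NEURL1B, a ubiquitin ligase for Notch ligands, fell by 0.41 at probe A_32_P198731 (limma adjusted p = 0.0132), but its other probe differed by 0.59 in the opposite direction without passing (limma adjusted p = 0.235). The NEURL1B call was lost in 4 of 16 alternatives, the replicate block and the fits without each siControl array (limma adjusted p from 0.0502 to 0.0698), and turned to 0.09 in the mean over its probes, which did not pass.

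Among the co-repressors that RBPJ can recruit, 1 of 11 passed. HDAC1, a histone deacetylase, read 12.11, 12.10 and 12.17 in siControl and 12.57, 12.71 and 12.66 in siRND3 and rose by 0.52 (SE 0.07, limma adjusted p = 0.00786). FBXW7 and HDAC1 passed in all 16 alternatives. None of the 8 co-activators passed. Of the 9 cleavage genes 1 passed, FURIN, the convertase that cuts the Notch precursor, which fell by 0.44 (limma adjusted p = 0.0271). FURIN lost the call in 8 of 16 alternatives, among them normexp correction (-0.22), the authors' log2 values (-0.28) and all fits without a single array but the one without siRND3 replicate 2. Of the 5 glycosylation genes 1 passed, MFNG, a Fringe glycosyltransferase that modifies Notch, which fell by 0.45 (limma adjusted p = 0.0197). MFNG lost the call in 5 of 16 alternatives, which were normexp correction (-0.19), the authors' log2 values (-0.24), the replicate block and the fits without siControl replicate 1 (limma adjusted p = 0.0782) or 3 (limma adjusted p = 0.0883). POFUT1, the Notch O-fucosyltransferase, was not counted because its probes passed in opposite directions, with -1.39 (limma adjusted p = 0.0064) and 0.66 (limma adjusted p = 0.0160), and it is named here after its values were seen. The POFUT1 probes are assigned to different RefSeq transcripts. The one that read lower was well above background on only 1 of 3 siRND3 arrays at 24 h. The receptor NOTCH4 and the ligand DLK1 were tested without passing, and DLL4 was above background on no array.

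**Figure D4:**
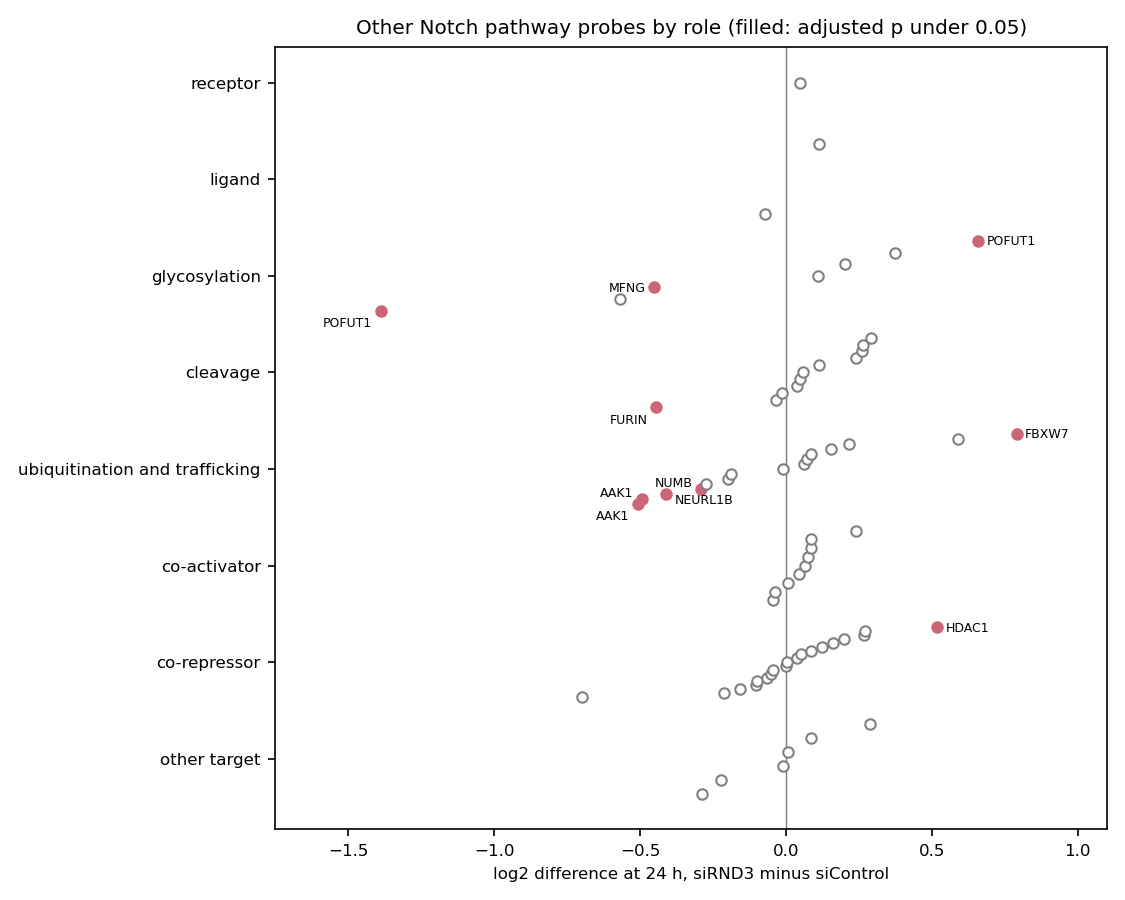
Log2 difference at 24 h, siRND3 minus siControl (horizontal axis), of every tested probe of the other Notch pathway genes, grouped by role (vertical axis), filled and named where the adjusted p was under 0.05. FBXW7 at 0.79 and HDAC1 at 0.52 are the filled probes right of 0 among the counted genes, and the filled POFUT1 probes lie on opposite sides of 0.

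Over time in siRND3, 12 of the 50 other pathway genes passed, 7 higher and 5 lower at 48 h, or 24.0% against 13.0% of all genes. The higher ones included the Fringe gene LFNG (1.27, limma adjusted p = 0.0106). Its other probe, assigned to a different RefSeq transcript, gave 0.14 and did not pass. Also higher were the proteases ADAM10 (0.52 and 0.51 at its probes) and ADAM17 (0.48). The lower ones included NEURL1B (-1.50, limma adjusted p = 0.00205, against 0.21 at its other probe, which did not pass) and the target gene HES4 (-1.15, limma adjusted p = 0.0262). LFNG, ADAM17 and NEURL1B passed in the same directions in siControl as well, where 4 of 50 passed in all, or 8.0% against 5.25% of all genes.

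Probes whose readings over the 8 arrays were most like those of a member were sought among 18122 named probes above background on all arrays. For the brighter NOTCH1 probe these were CTRB2 (r = 0.987), SPRNP1 (r = 0.984) and THBS1 (r = 0.978). For JAG1 they were MAP3K5 (r = 0.992), ARHGAP26 (r = 0.989) and TPP1 (r = 0.988). No such list was made for HES1, which was not above background on all 8 arrays. The 8 points share treatment, time and slide, so these correlations describe the arrays only.

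Markers of the labelled cell line and of other cell types were read beside these results. Of 7 glioblastoma markers 4 were above background on all 8 arrays at 1 probe or more, with the glial marker GFAP above it on none and S100B on 1. NES passed as higher at 24 h and CD44 and OLIG2 as lower. All 4 leukocyte markers and all 3 endothelial markers were above background on all arrays, as were 2 of 3 epithelial and 2 of 3 neuronal markers, with CDH1 and RBFOX3 above it on none. PECAM1, SNAP25 and SYT1 passed as lower at 24 h, and no leukocyte or epithelial marker passed. The other tested probes of NES (0.23), PECAM1 (-0.58) and SYT1 (0.10) did not pass (limma adjusted p = 0.196, 0.0653 and 0.706). The linear intensity at 24 h, summed over the brightest probe of each gene, was 155 to 198 in siControl and 195 to 217 in siRND3 for leukocyte markers, 255 to 283 and 258 to 286 for endothelial markers, 1007 to 1020 and 912 to 1166 for epithelial markers, and 1908 to 1989 and 1364 to 1528 for neuronal markers. For the glioblastoma markers it was 222214 to 235554 and 192782 to 215564. Their part in the differences of the Notch genes was not tested. In bulk RNA, fewer cells expressing a gene and less RNA per cell cannot be told apart.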

How the data were processed

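Total RNA of 8 U87 samples was hybridised to 1-colour Agilent human arrays, 1 array per sample. The authors ran Agilent Feature Extraction 10.7.3.1, and the deposited scanner output gives a linear intensity per spot, already background-corrected. The authors also deposited log2 values, which their methods describe as quantile-normalised and which had the rank order of the spot median, so no background was subtracted there. No column lay outside the series.

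Here the processed signal was logged (log2) and then quantile-normalised across the 8 arrays. Control spots (4259 of 62976) and outlier spots (0.364% to 0.530%) were left out, no spot was saturated, and spots of a probe were averaged. A probe was above background on an array when at least 50% of its spots were so marked. To be tested, a probe had to be above background on every 24 h array of siControl or of siRND3 (28762 probes), and 3389 passed (1548 higher, 1841 lower). Of 42405 probes, 25422 were named by RefSeq transcript (GRCh38.p14). Probe coordinates refer to hg19 and are not given.

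siRND3 and siControl at 24 h were compared with limma 3.58.1 in R 4.3.3 (lmFit, eBayes), with p-values adjusted by Benjamini-Hochberg over the 28762 probes and called below 0.05. A gene was called when 1 probe passed and none passed in the opposite direction. A 4-group model of all 8 arrays gave the contrasts with 48 h. The script was tested on simulated data. The fold of the dimmer NOTCH1 probe at 48 h used, for the dim array, its reading or, if higher, the lowest value among probes above background. The number of arrays limits the precision.

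The genes named were the 10 members, RND3, the other listed pathway genes called at 24 h and the probes most like NOTCH1, JAG1 and HES1. Members and lists were chosen with earlier results of these data known. Alternatives were 75th percentile scaling, normexp (offset 50, on the spot median), the authors' log2 values, the 6 arrays normalised alone, no filter, a stricter filter, SAM at a false discovery rate of 5%, a replicate block, all 8 arrays, each array left out, and, chosen after seeing the data, gene means over their probes.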

Additional observations from a re-analysis of the deposited data

Results flagged for a closer look

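The knockdown effect on NEURL1B, at probe A_32_P198731, differed between the times by the test of the difference itself. The log2 difference at 48 h minus that at 24 h was -0.91 (limma adjusted p = 0.0312), with 1 array per group at 48 h. The probe read 9.89, 9.95 and 9.94 in siControl and 9.49, 9.55 and 9.51 in siRND3 at 24 h, and 9.34 and 8.02 at 48 h. The difference passed in 5 of 11 alternatives, and the other NEURL1B probe gave -0.80 without passing (limma adjusted p = 0.537). NEURL1B was the single gene called by this test among the 50 other pathway genes tested, or 2%, against 4.33% of all genes.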

How the results depend on the processing

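The count of members called at 24 h was 1 as reported, 0 with 75th percentile scaling, 0 with the replicate block, 2 with SAM, 3 with all 8 arrays and 3 with gene means over probes, chosen after seeing the data. Leaving out each array in turn gave 0 to 1 members, 1387 to 2592 probes and 2 to 7 pathway genes, lowest without siControl replicate 3. The replicate block called 1654 probes and 3 pathway genes, and all 8 arrays called 11 pathway genes. Same-numbered arrays of the 2 groups had deviations correlated at 0.0018, -0.0116 and 0.1283, so the numbers were not taken to pair them, and not every array correlated best with its own number. Members called for the effect at 48 h minus 24 h went from 0 to 1 with normexp, the authors' log2 values and the stricter filter (RBPJ each time), and for time in siRND3 from 2 to 1 with the authors' log2 values and to between 1 and 2 with an array left out.

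Reversals were few and of values that had not passed, save NEURL1B. NOTCH2 (A_23_P200792) was -0.0101 with all 8 arrays, -0.0096 without siRND3 replicate 3 (0.0726 at most without 1 array) and -0.039 with gene means, which also gave -0.26 for NOTCH1 (A_33_P3370424) and 0.0895 for NEURL1B. The effect difference of RND3 was -0.0004 with 75th percentile scaling and -0.0504 to 0.0924 with an array left out. Time in siControl was 0.0086 for NOTCH2 (A_33_P3258824) and 0.051 for MFNG with 75th percentile scaling, and with an array left out it ran from -0.0283 to 0.0084 for that NOTCH2 probe and from -0.043 to 0.0102 for NOTCH3. Time in siRND3 then ran from -0.0808 to 0.0989 for NOTCH1 (A_33_P3370424). The cause was not tested. Of 833 single gene values under alternatives, 716 kept direction and side of the threshold, 84 lost the call, 19 gained it and 14 turned.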
